A study of Mus musculus with 16 samples.

Results

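Interferon-stimulated genes are the genes that cells switch on when an interferon binds its receptor. They are described here in the RPE (retinal pigment epithelium), the pigmented sheet that supports the photoreceptors, of mice with or without the succinate receptor SUCNR1. A list of 39 such genes was taken, and a gene was kept where it was in the deposited count table and had a mean of at least 1 CPM (counts scaled to a common library total) over all 16 libraries. All 39 of the 39 met this, out of 15380 genes in the table that reached the same level and 51912 genes listed.

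The mice were C57BL/6 males aged 40 weeks. They were wild type (WT) or knockout (KO) for Sucnr1, and mice of both genotypes were left untreated or were given hydroquinone, an oxidant used to produce oxidative stress. Each of the 4 groups held 4 libraries and each library came from 1 eye: untreated wild type, wild type with hydroquinone, untreated knockout, and knockout with hydroquinone. The titles name 13 mice, since the 4 untreated wild-type libraries came from 2 mice (libraries 1 and 2 from one, 3 and 4 from the other), libraries 1 and 3 of the untreated knockout group came from 1 mouse, and every hydroquinone library came from a mouse of its own. Libraries are numbered 1 to 4 within a group in the order of deposition, which pairs nothing, and p-values below measure the spread between libraries, some of which shared a mouse. The dose, route and duration of hydroquinone and the allele of the knockout were not given in the sources used here.

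Type I interferons (alpha and beta) signal through IFNAR1 and IFNAR2, and type III interferons (lambda) through IFNLR1 and IL10RB, a pair found mainly on epithelial cells. Both routes activate the kinases JAK1 and TYK2 and lead to a complex with STAT2 and IRF9 that binds a DNA element with repeated GAAA blocks, the interferon-stimulated response element. The genes behind such elements encode sensors and destroyers of viral RNA, GTPases, a ubiquitin-like modifier and transcription factors that carry the response further.

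Library totals ran from 21113549 to 35332444 counts. The tissue label was checked against its markers: all 12 RPE markers passed 1 CPM, Rpe65 lay between 2153 and 4345 CPM, and the mean log2(CPM + 1) of the 12 ran from 9.02 to 9.76 over the libraries. Sucnr1 had 29 counts over the 8 wild-type libraries, 27 of them in untreated libraries 1 and 2, and 4 over the 8 knockout libraries, which is too few to check the genotype of single libraries. Markers of other tissues were present as well. The mean log2(CPM + 1) of 15 rod markers ran from 3.22 to 9.99, that of 6 corneal epithelium markers from 8.21 to 11.38, and that of 14 macrophage markers from 4.77 to 6.27. That of 7 myelin markers ran from 2.05 to 8.52. Its group means were 6.40 in untreated wild type and 3.35 with hydroquinone, and 6.21 and 4.75 in the knockout. The median log2 fold change of these markers for hydroquinone in wild type was -3.14. Endothelium markers scored from 4.42 to 6.02 and fibroblast markers from 6.92 to 8.30. In tissue of this kind, fewer cells of a type and less RNA per cell cannot be told apart.

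Promoter sequences of 5 members are shown first because they carry the element that defines the response and belong to members whose levels are described below. They are the 250 bases before the RefSeq transcript start (build GRCm38.p6), read 5′ to 3′ on the strand of the gene, with every match to GAAA-NN-GAAA (a GAAA block, any 2 bases, another GAAA block) on either strand in capitals; where a match lies on the opposite strand it reads TTTC-NN-TTTC.

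Isg15, minus strand, chr4:156200819-156201068: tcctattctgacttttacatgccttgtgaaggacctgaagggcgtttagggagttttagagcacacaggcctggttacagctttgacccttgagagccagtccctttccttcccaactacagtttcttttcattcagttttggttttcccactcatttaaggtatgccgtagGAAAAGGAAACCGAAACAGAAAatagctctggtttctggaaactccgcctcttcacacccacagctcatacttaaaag

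Ifit1, plus strand, chr19:34640639-34640888: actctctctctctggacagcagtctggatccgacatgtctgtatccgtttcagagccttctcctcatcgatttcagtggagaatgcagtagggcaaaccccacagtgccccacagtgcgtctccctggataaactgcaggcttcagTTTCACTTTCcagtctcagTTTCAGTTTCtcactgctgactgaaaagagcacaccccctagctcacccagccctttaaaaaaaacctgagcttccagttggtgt

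Oas3, minus strand, chr5:120777660-120777909: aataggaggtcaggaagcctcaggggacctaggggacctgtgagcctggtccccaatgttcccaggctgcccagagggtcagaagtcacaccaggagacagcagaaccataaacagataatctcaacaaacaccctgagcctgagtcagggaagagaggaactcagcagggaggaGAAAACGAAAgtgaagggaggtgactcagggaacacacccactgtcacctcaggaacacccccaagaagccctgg

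Rsad2, minus strand, chr12:26456453-26456702: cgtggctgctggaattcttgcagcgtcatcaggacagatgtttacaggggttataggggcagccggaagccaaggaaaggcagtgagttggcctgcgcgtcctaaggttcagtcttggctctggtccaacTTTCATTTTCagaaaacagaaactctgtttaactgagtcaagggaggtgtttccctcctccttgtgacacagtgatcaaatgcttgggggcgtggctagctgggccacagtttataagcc

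Gbp2, plus strand, chr3:142620413-142620662: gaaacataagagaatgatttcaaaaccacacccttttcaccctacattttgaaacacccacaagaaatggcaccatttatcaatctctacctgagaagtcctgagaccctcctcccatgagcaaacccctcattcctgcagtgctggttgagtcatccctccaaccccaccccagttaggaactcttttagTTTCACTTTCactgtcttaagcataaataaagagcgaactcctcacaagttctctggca

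Isg15 held 3 overlapping matches between 78 and 57 bases before its start, and Ifit1 held 2 on the opposite strand. RefSeq promoters were matched for 29 of the 39 members. Of these, 12 (41.4%) held at least 1 match to GAAA-NN-GAAA, searched on both strands with overlapping matches counted, against 3.46% of the 27025 genes with a promoter and 3.13% of the 11644 such genes among those tested. The 12 were Isg15, Ifit1, Ifit3, Ifit3b, Stat2, Oas1a, Oas3, Rsad2, Gbp2, Gbp3, Gbp7 and Bst2. The median range of a member over the libraries was 2.59 log2 units for the 12 with GAAA-NN-GAAA, from 0.92 (Stat2) to 5.96 (Isg15), and 1.97 for the 17 without, from 0.99 (Ifit2) to 4.40 (Oasl1); the difference was not tested.

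The members were led by 1 library. Wild-type hydroquinone library 2 was the highest of the 16 libraries for 35 of the 39 members, where 14.8% of all tested genes were highest in it. The lowest values were spread over 4 libraries: untreated knockout library 4 was lowest for 18 members (9.04% of all genes), wild-type hydroquinone library 3 for 13 (13% of all genes), untreated knockout library 1 for 7 (12.2% of all genes), and knockout hydroquinone library 4 for Dtx3l. Libraries 2 and 3 of the wild-type hydroquinone group were thus the extremes of the same treatment and genotype, and 12 members were highest in the former and lowest in the latter, as were 6.2% of all genes. The 4 members not highest in wild-type hydroquinone library 2 were Dtx3l and Trim25 (library 1 of that group), Gbp7 (library 4 of that group) and Ifit2 (untreated knockout library 2).

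**Figure D1:**
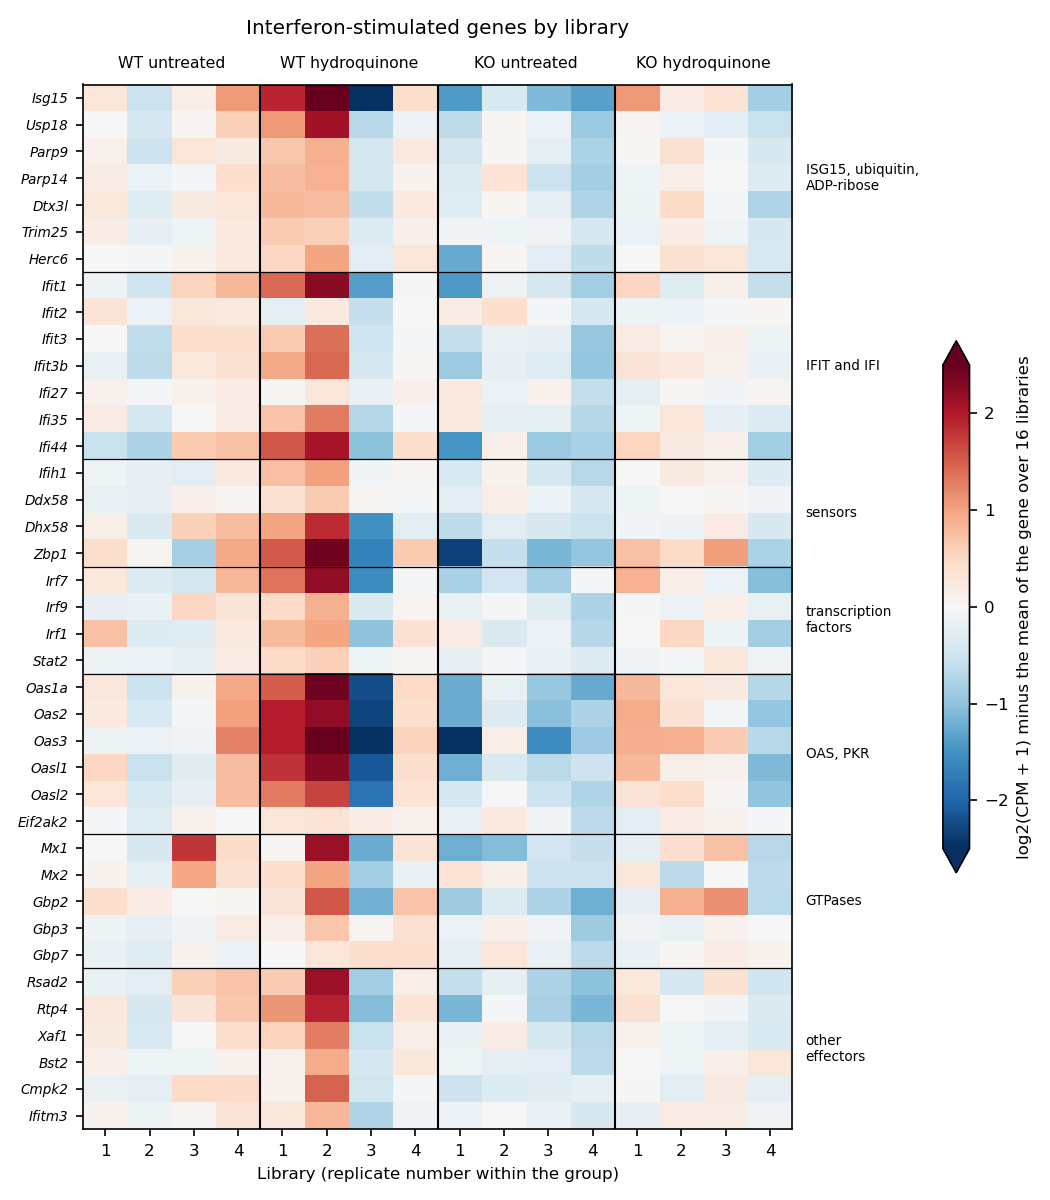
Rows are the 39 members grouped by role and columns are the 16 libraries grouped by genotype and treatment. The colour is log2(CPM + 1) minus the gene's mean over the 16 libraries, clipped at the ends of the scale; wild-type hydroquinone library 2 is the highest for 35 members and library 3 of the same group the lowest for 13.

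A member score, the mean log2(CPM + 1) of the 39 genes, placed the libraries on 1 axis. It was 5.15, 4.76, 5.20 and 5.52 in untreated wild-type libraries 1 to 4, and 5.85, 6.46, 4.17 and 5.25 in the wild-type libraries with hydroquinone. In the knockout it was 4.42, 4.96, 4.60 and 4.33 untreated, and 5.23, 5.19, 5.21 and 4.62 with hydroquinone. The group means were 5.16 ± 0.31, 5.43 ± 0.98, 4.58 ± 0.28 and 5.06 ± 0.30 (SD, n = 4 each). The wild-type hydroquinone group thus held both the highest and the lowest of the 16 scores and covered both knockout groups and the untreated wild-type group. Its SD was the largest of the 4 groups for 33 of the 39 members, against 34.9% of all genes, and the untreated knockout group had the largest SD for the other 6, against 34% of all genes.

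Within its group, wild-type hydroquinone library 2 lay above the mean of the other 3 libraries in 39 of 39 members, by a median of 1.24 log2 units, where the median over all genes was 0.01. Library 3 lay below the mean of its group's other libraries in 38 of 39, with a median deviation of -1.22 against 0.04 over all genes. Of the 100 genes by which library 2 exceeded the rest of its group most, 15 were members and 9 were on a list of 57 other interferon targets. The 100 genes by which library 3 fell short most held 12 members and 9 of those targets. No other library had more than 4 members among its 100 highest.

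The scores of the eyes of 1 mouse differed by 0.18 to 0.39. In the first untreated wild-type mouse, library 2 was lower than library 1 by 0.39, with 38 of 39 members lower. The second wild-type mouse scored 0.32 higher in library 4 than in library 3, with 29 members higher, and Zbp1, Oas3 and Mx1 differed most. The untreated knockout mouse with both eyes scored 0.18 higher in library 3 than in library 1. In the same order of mice, the median absolute difference of a member between the eyes was 0.38, 0.26 and 0.22 log2 units. Over all genes it was 0.23, 0.31 and 0.25.

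Levels per length differed widely between members. Per kilobase of merged exons, Ifitm3 was highest at 141 CPM per kb, followed by Ifit3 (113), Ifi27 (103) and Isg15 (100.5), and Mx2 was lowest at 0.965.

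ISG15 and the genes of its conjugation and of ADP-ribose signalling formed the first of 7 roles. Isg15 encodes the ubiquitin-like protein that is attached to newly made proteins during the response, Usp18 the protease that removes it and damps the receptor, Herc6 the ligase that attaches it in mice, and Trim25 a ubiquitin ligase for RIG-I. Isg15 (chr4:156199424-156200818, minus strand) had the largest range of all members, 5.96 log2 units. It measured 57.5, 31.8, 52.2 and 98.2 CPM in untreated wild type, 177, 399, 5.41 and 63.9 CPM in wild type with hydroquinone, 16.9, 35.4, 21.2 and 17.6 CPM in the untreated knockout, and 99.6, 54.0, 59.5 and 25.3 CPM in the knockout with hydroquinone. The highest library held 73.8 times the CPM of the lowest, and both were wild type with hydroquinone. Its hydroquinone log2 fold change was 1.43 ± 0.79 (SE) in wild type and 1.39 ± 0.79 in knockout (edgeR, adjusted p = 0.994 and 1.00). The groups overlapped in both. Its mean log2(CPM + 1) went from 5.82 to 6.21 in wild type and from 4.51 to 5.77 in knockout, so on that scale the rise was smaller in wild type.

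Usp18 measured 15.1, 11.2, 15.8 and 23.6 CPM in untreated wild type, 33.4, 68.8, 9.02 and 13.7 with hydroquinone, 9.54, 15.95, 13.7 and 7.56 in the untreated knockout, and 16.1, 13.8, 12.7 and 10.1 with hydroquinone. It was the only member with an unadjusted p below 0.05 between the genotypes with hydroquinone, at a log2 fold change of -1.25 ± 0.48 (edgeR, adjusted p = 1.00), yet 2 of the 4 wild-type values lay inside or below the knockout range. Trim25 varied little, from 84.4 CPM in untreated knockout library 4 to 178 CPM in wild-type hydroquinone library 1. Its values were 130.3, 98.2, 106 and 135 CPM in untreated wild type and 178, 174, 89.6 and 124 with hydroquinone, then 109, 106, 108 and 84.4 in the untreated knockout and 102, 131, 106 and 85.8 with hydroquinone. Over the 7 genes of this role the median log2 fold change for hydroquinone was 0.36 in wild type and 0.25 in knockout, all 7 higher in both. Parp9 and Dtx3l overlap on opposite strands, and the strand setting of the counting was not given, so their reads cannot be told apart where they overlap.

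The IFIT proteins bind foreign or uncapped RNA, and the 7 genes of the IFIT and IFI group held genes that varied with the other members, such as Ifit3 and Ifit3b, and genes that varied little, Ifit2 and Ifi27. Ifit3b measured 81.1, 59.1, 111 and 119.6 CPM in untreated wild type, 178, 250.4, 69.5 and 93.8 with hydroquinone, 48.4, 79.2, 74.6 and 46.6 in the untreated knockout, and 115, 109, 99.6 and 82.1 with hydroquinone. In the knockout every hydroquinone library exceeded every untreated one, and the log2 fold change was 0.71 ± 0.34 (edgeR, adjusted p = 1.00). Ifit3 gave 185, 118, 241 and 241 CPM in untreated wild type, 283, 477, 129 and 176 with hydroquinone, 121, 160.3, 158 and 94.4 in the untreated knockout, and 211, 190.1, 200.5 and 167 with hydroquinone. Its knockout groups did not overlap either. Ifit3 and Ifit3b are near copies: 51.2% of the 50-base windows of Ifit3 also occur in Ifit3b, and 44.95% in the other direction, so their counts may be split uncertainly. Ifi27, a mitochondrial and nuclear envelope protein of uncertain function, ranged only from 99.1 to 184 CPM. It gave 160.1, 144, 161 and 169 CPM in untreated wild type, 153, 184, 130.4 and 163 with hydroquinone, 178, 134, 162 and 99.1 in the untreated knockout, and 126, 152, 142 and 156 with hydroquinone. Ifit2 had a log2 fold change of -0.30 for hydroquinone in wild type and -0.14 in knockout, opposite in sign to most members.

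**Figure D2:**
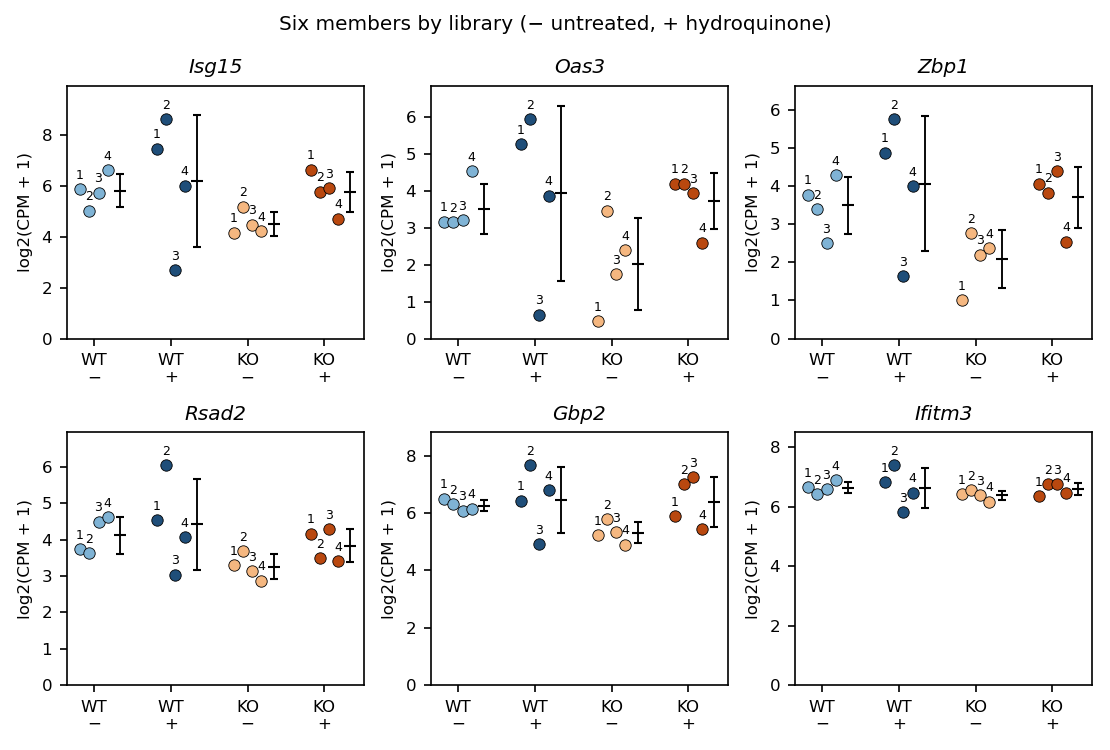
Points are log2(CPM + 1) of 6 members in each library, labelled with the replicate number; the bar beside each group is the mean ± SD (n = 4), and − and + stand for untreated and hydroquinone. Isg15, Oas3, Zbp1, Rsad2 and Gbp2 reach their highest value in wild-type hydroquinone library 2, and Ifitm3 has its extremes in the same libraries over a narrower range.

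The sensors of nucleic acid in the cytoplasm were headed by Zbp1, which binds left-handed double-stranded nucleic acid and can start necroptosis. Zbp1 (chr2:173206612-173218923, minus strand) measured 12.7, 9.52, 4.65 and 18.5 CPM in untreated wild type, 28.4, 53.1, 2.11 and 14.8 with hydroquinone, 1.01, 5.77, 3.58 and 4.15 in the untreated knockout, and 15.6, 13.1, 19.8 and 4.83 with hydroquinone. Its knockout log2 fold change for hydroquinone was 1.87 ± 0.75 (edgeR, adjusted p = 1.00), the largest of any member in that comparison, with 3 of 4 treated libraries above every untreated one. Untreated knockout against untreated wild type gave -1.64 ± 0.74 (edgeR, adjusted p = 1.00). Both comparisons use the same untreated knockout libraries. Ifih1, the long double-stranded RNA sensor MDA5, measured 32.8, 30.4, 29.3 and 42.1 CPM in untreated wild type, 60.4, 73.1, 33.8 and 36.0 with hydroquinone, 27.0, 37.9, 26.01 and 21.4 in the untreated knockout, and 35.6, 41.7, 38.3 and 28.2 with hydroquinone. In wild type its log2 fold change was 0.60 ± 0.24 (edgeR, adjusted p = 0.994), with the treated group overlapping the untreated. Ddx58 (RIG-I) and Dhx58 (LGP2) completed the 4 sensors, all 4 of which were higher with hydroquinone in each genotype.

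The 4 transcription factors of the pathway, Stat2, Irf7, Irf9 and Irf1, were all higher with hydroquinone in both genotypes, at medians of 0.33 and 0.24 on the log2 scale. Stat2, the STAT of the type I and III complex, measured 45.1, 44.6, 41.4 and 56.6 CPM in untreated wild type, 68.6, 75.2, 45.4 and 50.1 with hydroquinone, 42.8, 47.9, 43.9 and 39.3 in the untreated knockout, and 46.2, 47.6, 60.2 and 46.3 with hydroquinone. Its log2 fold change in wild type was 0.35 ± 0.16 (edgeR, adjusted p = 0.994). Irf7, the factor that amplifies type I interferon production, had the widest range of the 4, from 17.7 CPM in wild-type hydroquinone library 3 to 258 CPM in library 2. Its values in libraries 1 and 4 of that group were 143 and 54.0 CPM.

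The role of the OAS genes and Eif2ak2 includes sensors of double-stranded RNA that act by RNA decay or by blocking translation. This role had the largest median differences of the 7. Oas1a, Oas2 and Oas3 encode enzymes that make the oligoadenylate that activates RNase L, and Eif2ak2 encodes the kinase PKR. The median edgeR log2 fold change over the 6 genes was 1.07 for hydroquinone in wild type and 0.99 in knockout. Their mean log2(CPM + 1) went from 4.65 to 5.01 in wild type and from 3.79 to 4.61 in knockout. On that scale the rise was larger in knockout. The median was -1.12 for knockout against wild type averaged over treatment, where the median of all 39 members was -0.52. Oas3 (chr5:120753098-120777661, minus strand) measured 7.91, 7.88, 8.15 and 22.0 CPM in untreated wild type, 37.1, 60.2, 0.557 and 13.5 with hydroquinone, 0.383, 9.93, 2.32 and 4.23 in the untreated knockout, and 17.2, 17.1, 14.2 and 5.04 with hydroquinone. The highest value was 157 times the lowest, although the lowest rests on 8 counts. Its hydroquinone log2 fold change was 1.28 ± 0.94 in wild type and 1.66 ± 0.96 in knockout (edgeR, adjusted p = 0.994 and 1.00). Oas1a, Oas2, Oasl1 and Oasl2 were also highest in wild-type hydroquinone library 2. They were lowest in library 3 of that group, whereas Oas3 was lowest in untreated knockout library 1. Oas1a shares 57.6% of its 50-base windows with other genes, Oas1g above all, so its level is uncertain. Eif2ak2 was the exception in the role: it ran only from 32.3 to 65.5 CPM, and was the 1 member whose wild-type hydroquinone libraries (63.5, 65.5, 58.2 and 55.4 CPM) all exceeded the untreated ones (49.3, 41.3, 55.2 and 50.8), where 1.13% of all genes did so.

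Among the 5 interferon-induced GTPases, Gbp2 and Mx1 were highest in wild-type hydroquinone library 2 and Gbp7 was not. Gbp2, a guanylate-binding protein that coats intracellular bacteria and vacuoles, measured 89.8, 77.7, 66.9 and 70.1 CPM in untreated wild type, 85.5, 201, 29.1 and 111 with hydroquinone, 36.2, 53.8, 39.4 and 28.7 in the untreated knockout, and 58.5, 127, 151 and 42.2 with hydroquinone. Untreated knockout libraries all lay below untreated wild-type ones, with a log2 fold change of -0.95 ± 0.47 (edgeR, adjusted p = 1.00). With hydroquinone in knockout it was 1.26 ± 0.47 (edgeR, adjusted p = 1.00), with library 4 inside the untreated range. Mx1 measured 2.91, 1.96, 12.3 and 4.36 CPM in untreated wild type, 3.08, 16.2, 0.636 and 3.91 with hydroquinone, 0.671, 0.819, 1.78 and 1.61 in the untreated knockout, and 2.27, 4.11, 5.44 and 1.41 with hydroquinone. The C57BL/6 strain carries a defective Mx1, an antiviral dynamin-like GTPase. Its untreated genotype groups did not overlap, at -2.13 ± 0.82 (edgeR, adjusted p = 1.00).

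Mx2 was low throughout, at 3.45, 2.59, 7.16 and 4.45 CPM in untreated wild type, 4.62, 7.23, 1.27 and 2.72 with hydroquinone, 4.27, 3.60, 1.90 and 1.91 in the untreated knockout, and 4.11, 1.65, 3.18 and 1.67 with hydroquinone. Gbp7, a guanylate-binding protein, was the member least like the others. It gave 41.9, 38.2, 50.8 and 42.5 CPM in untreated wild type, 48.1, 58.5, 63.2 and 63.9 with hydroquinone, 40.7, 58.7, 41.5 and 29.9 in the untreated knockout, and 41.7, 48.7, 54.3 and 50.8 with hydroquinone. Wild-type hydroquinone library 3, the lowest for 13 members, was the second highest library for Gbp7. Its log2 fold change in wild type, 0.43 ± 0.17 (edgeR, adjusted p = 0.994), had the smallest p of all members there, and 12.7% of its windows are shared, with Gbp3 or an overlapping gene model.

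Effectors at membranes and in nucleotide metabolism made up the last 6. Rsad2 encodes viperin, which makes a chain-terminating nucleotide, Cmpk2 a mitochondrial nucleotide kinase next to it in the genome, Bst2 the tether that holds virus particles on the cell, Ifitm3 a blocker of virus entry, Rtp4 a receptor transporter, and Xaf1 a pro-apoptotic factor. Rsad2 (chr12:26442746-26456452, minus strand) measured 12.4, 11.4, 21.6 and 23.6 CPM in untreated wild type, 22.2, 64.9, 7.20 and 15.7 with hydroquinone, 8.87, 11.9, 7.78 and 6.32 in the untreated knockout, and 16.95, 10.2, 18.4 and 9.62 with hydroquinone. Averaged over treatment, its knockout log2 fold change was -0.99 ± 0.36 (edgeR, adjusted p = 0.987). Rtp4 gave 26.4, 16.1, 26.9 and 34.7 CPM in untreated wild type, 47.2, 84.2, 9.54 and 27.5 with hydroquinone, 9.20, 20.9, 11.9 and 9.21 in the untreated knockout, and 28.4, 21.7, 20.4 and 16.5 with hydroquinone. It had the smallest p of the averaged genotype comparison, at -0.99 ± 0.34 (edgeR, adjusted p = 0.987).

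Xaf1 measured 21.0, 13.6, 17.8 and 24.7 CPM in untreated wild type, 26.6, 44.9, 11.8 and 19.7 with hydroquinone, 15.9, 20.4, 13.3 and 10.7 in the untreated knockout, and 19.2, 16.5, 14.9 and 13.4 with hydroquinone. Those genotype groups overlapped with and without hydroquinone. Ifitm3, the member with the highest level per length, measured 99.4, 84.9, 95.4 and 117 CPM in untreated wild type, 113, 166, 55.1 and 87.2 with hydroquinone, 84.3, 92.6, 82.6 and 70.5 in the untreated knockout, and 80.9, 107, 107 and 88.1 with hydroquinone. Its range was 1.58 log2 units, wider than that of Ifi27 (0.89) or Stat2 (0.92). It had its highest and lowest values in wild-type hydroquinone libraries 2 and 3. About 10.0% of its windows occur in other genes, Ifitm1 and Ifitm2 among them, and 11.6% of those of Rtp4 in an overlapping gene model.

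Tested one by one across all 15380 genes with edgeR's quasi-likelihood test, no member passed an adjusted p of 0.05 in any of the 7 comparisons. With hydroquinone in wild type, 36 of the 39 were higher by edgeR fold change (50% of all genes) and 3 lower. The median log2 fold change of the 39 was 0.43 against 0.00 over all genes. By mean log2(CPM + 1), Dhx58 (3.89 untreated, 3.87 with hydroquinone), Mx1 (2.42 and 2.28) and Ifitm3 (6.64 and 6.62) were lower there too. No member was called (0.0065% of all genes were), and 3 had an unadjusted p below 0.05: Ifih1, Stat2 and Gbp7 (4.28% of all genes did). With hydroquinone in knockout, 37 were higher (49.6% of all genes), the median was 0.36, none was called (0.0455% of all genes were) and Zbp1 and Gbp2 had a p below 0.05 (2.96% of all genes did). Ifit3, Ifit3b and Bst2 had knockout groups that did not overlap in the upward direction, as had 1.18% of all genes.

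Averaged over genotype, 37 members were higher with hydroquinone (51.2% of all genes) at a median of 0.43. None was called (0.0845% of all genes were). There, 15 had a p below 0.05, all upward (2.75% of all genes had this upward), and the smallest adjusted p was 0.810, for Zbp1. The 15 were 3 GTPases (Gbp2, Gbp3, Gbp7), 3 OAS genes (Oas1a, Oas2, Oas3), Zbp1, Ifih1, Isg15, Herc6, Ifi44, Ifit3b, Rtp4, Bst2 and Stat2.

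Knockout against wild type, untreated, all 39 members were lower in the knockout (46.8% of all genes), with a median of -0.56. None was called (0% of all genes were), Mx1 and Zbp1 had a p below 0.05 (1.32% of all genes did), and the groups did not overlap for Mx1, Gbp2, Bst2 and Cmpk2 (0.67% of all genes in that direction). With hydroquinone, 38 were lower (46.9% of all genes) and the median was -0.54. None was called (0% of all genes were), Usp18 alone had a p below 0.05 (4.18% of all genes did), and no member had groups apart (0.605% of all genes did in that direction). Averaged over treatment, all 39 were lower (44.3% of all genes) at a median of -0.52, none was called (0% of all genes were), and 21 had a p below 0.05, all downward (1.55% of all genes had this downward), with a smallest adjusted p of 0.987. No difference between the genotypes in the effect of hydroquinone passed the test: the median interaction was -0.02, 17 members were above 0 and 22 below, none was called (0% of all genes were) and none had a p below 0.05 (1.92% of all genes did). DESeq2 and limma with the mouse as a block called no member in any of the 7 comparisons either. These comparisons share libraries, so their counts are not independent of each other. The members also varied together, with a median correlation of 0.89 to the mean of the others. Counts out of 39 are therefore not counts of independent observations. The untreated groups came from 2 wild-type and 3 knockout mice.

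**Figure D3:**
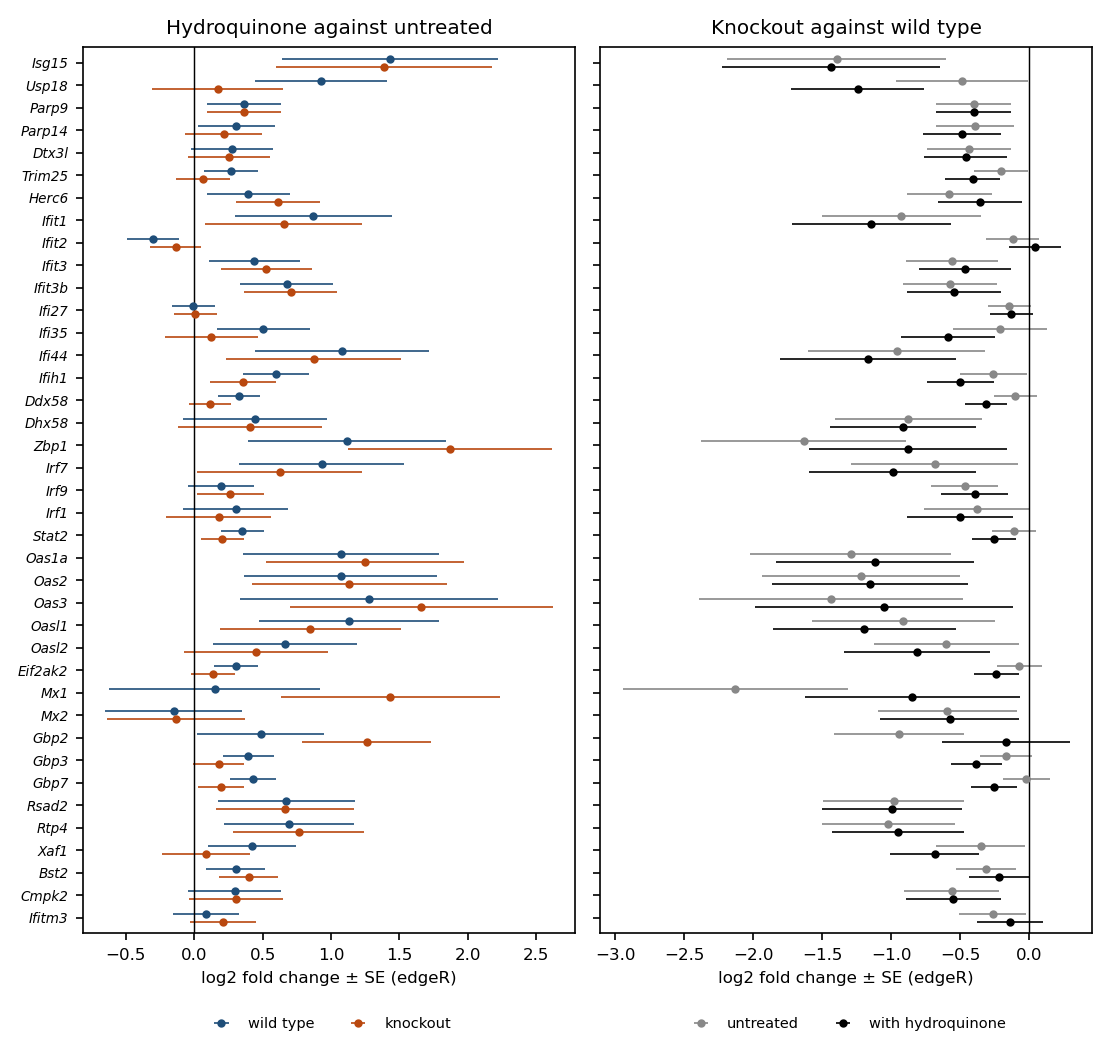
Log2 fold changes of the 39 members with their standard errors (edgeR), for hydroquinone against untreated in each genotype (left) and for knockout against wild type in each treatment (right). Most points lie right of 0 on the left and left of 0 on the right, the error bars are widest for Isg15, the OAS genes, Zbp1 and Mx1, and no member passed the test.

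Single libraries moved every comparison that used the wild-type hydroquinone group. Without library 2 of that group, the median for hydroquinone in wild type went from 0.43 to 0.15, with 28 members higher, and that for knockout against wild type with hydroquinone from -0.54 to -0.21. Without library 3, the same medians became 0.66 and -0.78, and the members with a p below 0.05 went from 3 to 24 and from 1 to 29, none of them called. Those 2 libraries thus pulled in opposite directions, and with both left out, an alternative chosen after the data were seen, the medians were 0.37 and -0.46. Averaged over genotype, the hydroquinone median was 0.22 without library 2 and 0.55 without library 3, with 5 and 27 members at p below 0.05. For knockout against wild type averaged over treatment, the 21 members with a p below 0.05 became 1 without library 2 and 35 without library 3, at medians of -0.35 and -0.64. That count was also 6 without untreated wild-type library 4 and 1 without both libraries of its mouse. For these refits and those below, the share of all genes with a p below 0.05 is not given. Whether such counts moved more for the members than for other genes is therefore not shown.

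Leaving out a library also moved the comparisons that did not use the wild-type hydroquinone group. For hydroquinone in knockout the median ran from 0.28 (without untreated knockout library 4) to 0.50 (without untreated knockout library 2). For knockout against wild type untreated it ran from -0.68 to -0.38, the latter without untreated wild-type library 4, and leaving out the whole mouse behind untreated wild-type libraries 3 and 4 gave -0.20. With the eyes of a mouse summed, the members with a p below 0.05 dropped to 3 for averaged hydroquinone and 3 for averaged genotype, from 15 and 21, at medians of 0.42 and -0.52.

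**Figure D4:**
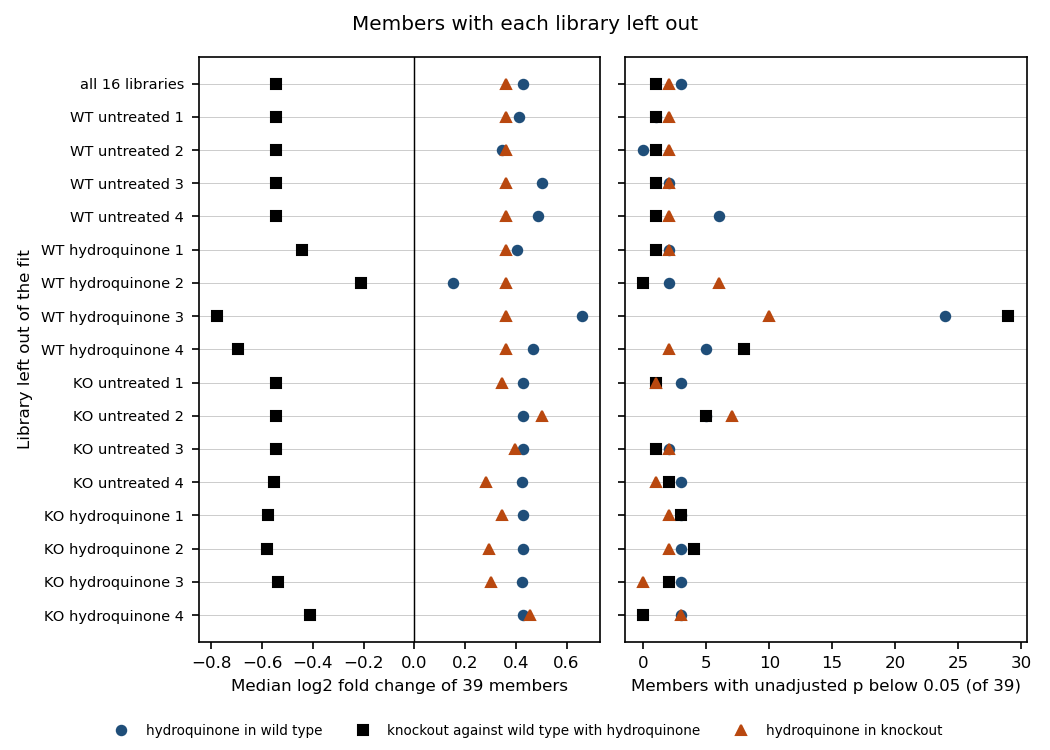
Median log2 fold change of the 39 members (left) and members with an unadjusted p below 0.05 (right) when each library in turn is left out of the edgeR fit, for 3 comparisons. Leaving out wild-type hydroquinone library 2 moves the hydroquinone median in wild type to 0.15, and leaving out library 3 moves it to 0.66 with 24 members at p below 0.05. The share of all genes in each fit is not shown.

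The members varied together from library to library, which is given as a description, since the 16 libraries share mice and differ in tissue make-up and depth. The correlation of a member's log2(CPM + 1) with the mean of the other members had a median of 0.89 over the 39, and 29 were above 0.8. Over the other 15341 tested genes the median correlation with the member mean was -0.06, and 260 were above 0.8. With group means removed the members' median was 0.87, and over the 13 libraries without wild-type hydroquinone libraries 1 to 3 it was 0.80. Oas1a (0.98), Rtp4 (0.98) and Isg15 (0.97) followed the others most closely. Gbp7 (0.30), Ifit2 (0.40), Ifi27 (0.47) and Eif2ak2 (0.55) followed least.

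Interferon ligands were scarce. None of the 10 ligand genes listed reached a mean of 1 CPM, and Ifna1, Ifna2, Ifna4, Ifna5 and Ifne had 0 counts in every library. Ifnb1 had 49 counts over 10 libraries, at most 10 in one. Counts of the lambda genes Ifnl2 and Ifnl3, summed because 31.7% of the 50-base windows of Ifnl2 and 38.8% of those of Ifnl3 are shared, were 45, 1, 10 and 57 in untreated wild-type libraries 1 to 4, 137, 44, 0 and 4 in the wild-type hydroquinone libraries, 0, 1, 0 and 0 in the untreated knockout, and 43, 36, 27 and 0 in the knockout with hydroquinone. The 5 libraries with 0 such counts were the 5 with the lowest member scores, from 4.17 to 4.62, and the scores of the other 11 ran from 4.76 to 6.46. They were wild-type hydroquinone library 3, untreated knockout libraries 1, 3 and 4, and knockout hydroquinone library 4. The same held for Ifnb1: the 6 libraries with 0 counts had the 6 lowest scores, from 4.17 to 4.76, the sixth being untreated wild-type library 2. It did not hold for Ifng, with 0 counts in wild-type hydroquinone library 1 (score 5.85) and 1 in knockout hydroquinone library 4 (4.62). A count of 0 allows up to 0.0965 to 0.142 CPM across those libraries (3 counts), counting error only, and the pattern is given without a test. At its boundary the lambda split rests on 1 count in untreated wild-type library 2 (score 4.76). Knockout hydroquinone library 4 (4.62) had 0, a difference within that limit. Corneal scores of the 5 without lambda counts ran from 8.21 to 9.84 and those of the other 11 from 8.37 to 11.38, so that these ranges overlapped. Both lambda genes lie in a locus that overlaps Samd4b. Wild-type hydroquinone library 2, with the highest score, had 44, fewer than the 137 of library 1. In an edgeR fit without the filter on low counts, the log2 fold change for hydroquinone in knockout was 6.76 ± 2.08 for Ifnl2 and 5.07 ± 1.85 for Ifnl3, both with an unadjusted p below 0.05 and an adjusted p of 0.912. Untreated knockout against wild type gave -6.58 ± 2.09 for Ifnl2 and -5.60 ± 1.86 for Ifnl3 (adjusted p = 1.00 for both). The untreated knockout group held 1 such count in all, so these fitted values depend on the prior count of the fit and are no measure of size. In wild type hydroquinone gave 0.94 ± 1.30 for Ifnl2 and 0.13 ± 1.30 for Ifnl3. For Ifng, hydroquinone averaged over genotype gave 2.64 ± 1.21 (edgeR, unadjusted p = 0.045, adjusted p = 0.874), on at most 5 counts in a library.

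**Figure D5:**
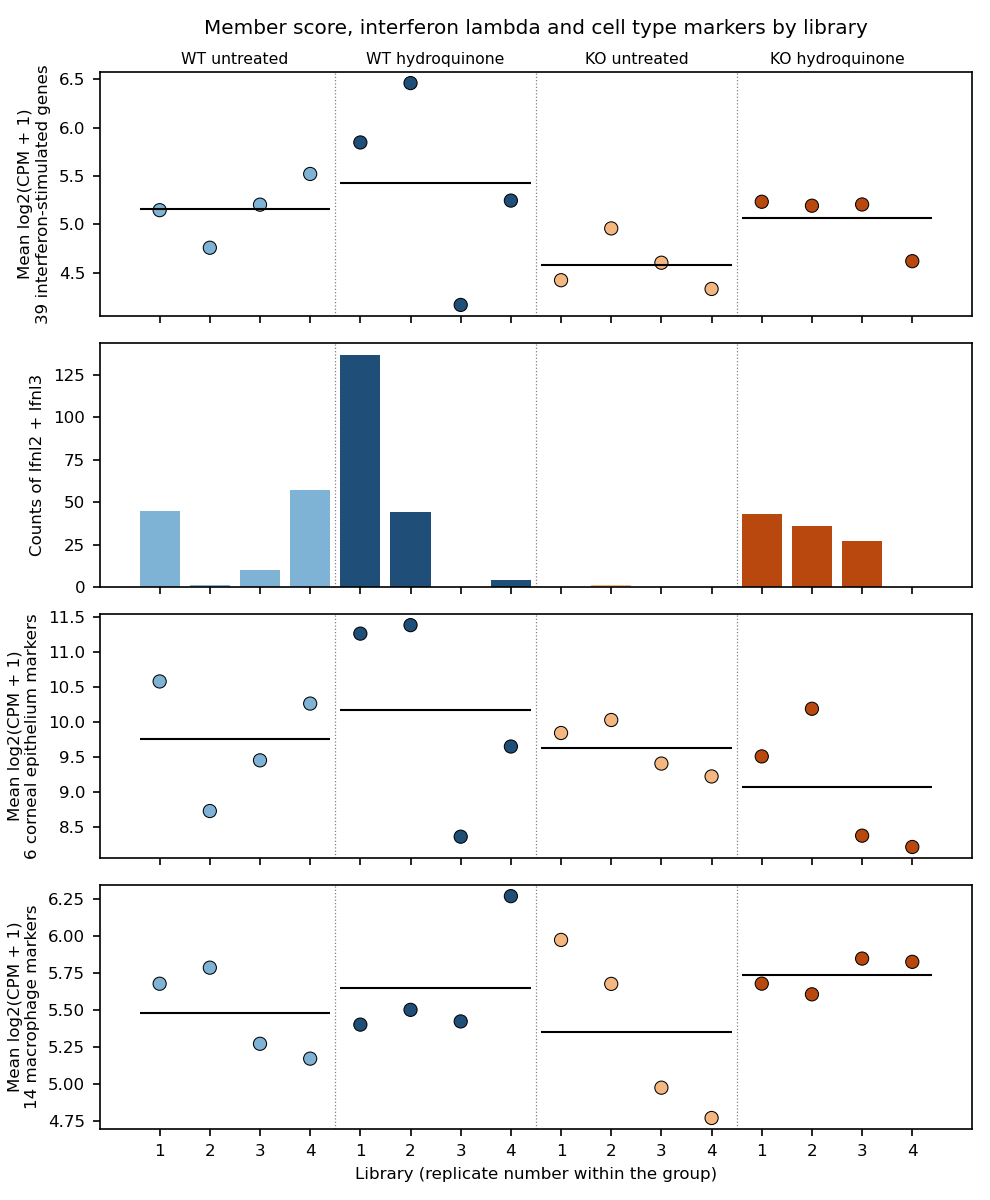
From top to bottom, for each library: the member score, the counts of Ifnl2 and Ifnl3 together, and the scores of 6 corneal epithelium and 14 macrophage markers (mean log2(CPM + 1)), with group means as lines where drawn. Wild-type hydroquinone libraries 1 and 2 are highest in the member and corneal scores (5.85 and 6.46; 11.26 and 11.38), and library 3 is low in both (4.17 and 8.35).

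Receptors and signal carriers were present. All 14 genes of that list were tested, from 2.04 CPM for Socs1 to 147 CPM for Jak1 on average. Ifnlr1, the lambda receptor, was measured in every library, with a mean of 8.38 CPM and its highest value, 13.9 CPM, in wild-type hydroquinone library 2. For averaged hydroquinone 13 of the 14 were higher at a median log2 fold change of 0.15, 4 had a p below 0.05 (5.72% of all genes did) and none was called. Stat3, a STAT shared with many cytokine receptors, was at 0.19 ± 0.07 (edgeR, adjusted p = 0.823). Of 17 genes of sensing and induction, 16 were tested, 15 were higher at a median of 0.13 and 4 had a p below 0.05, led by Samhd1, a nucleotide hydrolase (0.60 ± 0.18, adjusted p = 0.759), and Irf8 (0.40 ± 0.18, adjusted p = 0.868).

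Corneal epithelium markers moved with the members in the wild-type hydroquinone group. Their score was 11.26, 11.38, 8.35 and 9.65 in libraries 1 to 4 of that group, and Krt12, the cornea's own keratin, was 7622, 10340, 438 and 1808 CPM there. Elsewhere the corneal score was 10.58, 8.72, 9.45 and 10.26 in untreated wild type, 9.84, 10.02, 9.40 and 9.22 in the untreated knockout, and 9.50, 10.19, 8.37 and 8.21 in the knockout with hydroquinone. Of the 7 markers listed, 6 passed 1 CPM and Krtdap did not. With the corneal score as a covariate, an alternative chosen after the data were seen, the median for hydroquinone in wild type was 0.11 in place of 0.43 and that for knockout against wild type with hydroquinone was 0.12 in place of -0.54. For hydroquinone in knockout the median was 0.56 in place of 0.36, with 27 members at p below 0.05 in place of 2, and for untreated knockout against wild type it was -0.47 in place of -0.56. Averaged over treatment, where all 6 corneal markers were lower in the knockout at a median of -0.72, the genotype median of the members was -0.17 in place of -0.52, with 0 members at p below 0.05 in place of 21. None of these fits called a member, and the share of all genes with a p below 0.05 in them is not given.

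Macrophage markers did not follow the members within the wild-type hydroquinone group, but were higher with hydroquinone in the knockout as the members were. Their score was 5.40, 5.50, 5.42 and 6.27 in wild-type hydroquinone libraries 1 to 4, so that libraries 2 and 3, the highest and lowest for the members, differed by little. In the knockout the score was 5.35 ± 0.57 untreated and 5.74 ± 0.12 with hydroquinone (SD, n = 4 each), with overlapping libraries. There 13 of the 14 markers were higher with hydroquinone, at a median log2 fold change of 0.41, where the members had 0.36, and averaged over genotype 12 were higher at 0.29. No macrophage marker had a p below 0.05 in either comparison. With the macrophage score as a covariate the members' medians were 0.44 for hydroquinone in wild type, 0.40 in knockout, 0.49 averaged and -0.50 for knockout against wild type with hydroquinone, and with the rod score they were 0.42 for the first and -0.55 for the last. Of the markers of plasmacytoid dendritic cells, the specialist producers of type I interferon, 4 of 5 passed 1 CPM, among them Tcf4, which many cell types express. Their score ran from 3.49 to 4.09 in the wild-type hydroquinone group and from 3.42 to 4.45 over all libraries. T and NK cell markers, of which 5 of 10 passed 1 CPM, were higher with hydroquinone, as the members were. Their score was 1.46 ± 0.25 in untreated wild type and 1.90 ± 0.50 with hydroquinone, and 1.22 ± 0.45 in the untreated knockout and 2.00 ± 0.40 with hydroquinone (SD, n = 4 each). All 5 were higher with hydroquinone in both genotypes, at median log2 fold changes of 0.72 in wild type, 1.14 in knockout and 0.99 averaged, where 3 had a p below 0.05 and none was called. In wild-type hydroquinone libraries 1 to 4 that score was 1.78, 2.08, 1.28 and 2.46, lowest in library 3 as for the members and highest in library 4. Neutrophil markers scored from 0.54 to 2.32, and the 2 of 6 past 1 CPM were lower in the knockout averaged over treatment, at a median of -0.73. In wild-type hydroquinone libraries 1 to 4 the neutrophil score was 2.32, 1.72, 0.99 and 1.62, lowest in library 3 as for the members and highest in library 1. Apart from the covariate fits given, the part of these cells in the members' levels was not tested.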

How the data were processed

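RNA of the retinal pigment epithelium was sequenced in 16 libraries, 4 per group. The authors deposited whole-number read counts per Ensembl gene; the table is named after FPKM, yet 100% of its values were whole numbers, so they were treated as counts. STAR, Cufflinks, DESeq2 and the build mm10 are named, per the submitters' processing notes, without roles or versions; the counting tool, annotation and strand setting were not given in the sources used here. Symbols and positions come from GENCODE vM21 (GRCm38), 1-based, which matched 51719 of 51912 identifiers.

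Here, genes averaging 1 CPM or more were kept (15380, holding 99.8% of counts), and CPM was scaled by TMM. Levels are CPM or log2(CPM + 1). All tests are 2-sided quasi-likelihood tests in edgeR 4.0.16 (R 4.3.3), 1 mean per group, Benjamini-Hochberg over all tested genes, threshold 0.05. Fold changes compare group levels fitted to counts, so 1 high library weighs more in them than in a mean of log2(CPM + 1). SEs come from the F statistic. DESeq2 1.42.0 and limma 3.58.1 were alternatives. The procedure was tested on simulated data for hydroquinone in wild type and in knockout only, with all libraries drawn independently. The other comparisons, eyes of 1 mouse and genes that vary together were not covered. The protocol states 4 animals per group whereas titles name 13 mice; titles were followed, eyes entered as separate libraries, and were summed in an alternative (consensus correlation of eyes of a mouse -0.02). Promoters are RefSeq (GRCm38.p6); Ifi27, Dhx58, Oas2, Mx1, Mx2, Usp18, Rtp4, Zbp1, Parp9 and Parp14 had no entry. Shared 50-base windows were counted between annotated transcripts.

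The members and lists were chosen with earlier results of these data known. Values in every library are given for any member called; the 3 with the smallest p in each comparison of 2 groups; the 2 with the smallest p in each averaged comparison and the interaction; the 3 with the largest range; the 3 highest and the 1 lowest per kilobase; others are named as examples. In each pathway list, up to 2 genes with the smallest p for averaged hydroquinone are named, except 1 gene that is not reported here. Intervals and limits of 0 counts cover counting error only.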

Additional observations from a re-analysis of the deposited data

Results flagged for a closer look

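In each group of 4 libraries, the 39 members and the member score were checked for a single library standing apart: its gap to the nearest of the others had to exceed the share of the group's range given by Dixon's 95% critical value. Of 160 sets, 7 met this, where chance flags about 1 in 20 groups, or 8.0 sets. All values are log2(CPM + 1).

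In the knockout hydroquinone group, library 4 had a member score of 4.62, where the others lay between 5.19 and 5.23. Oas3 in the same library was 2.60 against 3.93 to 4.19. Stat2 in library 3 of that group was 5.94 against 5.56 to 5.60.

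Untreated wild-type library 2 was low for Ifit2, at 5.13 against 5.52 to 5.59, and for Dtx3l, at 5.29 against 5.83 to 5.90. Untreated wild-type library 4 was high for Oas3, at 4.53 against 3.15 to 3.19, where library 3, the other eye of the same mouse, was among the others. Trim25 in untreated knockout library 4 was 6.42 against 6.74 to 6.77. Wild-type hydroquinone libraries 2 and 3 met this for no member; they lay at opposite ends of the group.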

How the results depend on the processing

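No member was called in any of the 7 comparisons under any of 33 alternatives, and the smallest adjusted p of a member in any of them was 0.126, for averaged hydroquinone in libraries whose identifiers carry a letter. The median for knockout against wild type with hydroquinone changed sign, to 0.12, with the corneal score as covariate. The span of the member score over the libraries was 2.30 with all and 1.68 to 2.30 when each was left out, the lowest without wild-type hydroquinone library 2. Of the values of single genes, 592 kept their direction and 2 reversed, Ifih1 (-0.013) and Stat2 (-0.015) for hydroquinone in wild type with letter identifiers only, where the wild-type hydroquinone group has 1 library, assumed to vary like the other groups; the cause was not tested. The medians with each library left out ran from 0.15 to 0.66 for hydroquinone in wild type, 0.28 to 0.50 in knockout, 0.22 to 0.55 averaged, -0.68 to -0.38, -0.78 to -0.21 and -0.64 to -0.35 for knockout against wild type untreated, with hydroquinone and averaged, and -0.26 to 0.32 for the interaction. In the same order, members with an unadjusted p below 0.05 numbered 0 to 24, 0 to 10, 4 to 27, 0 to 10, 0 to 29, 1 to 35 and 0 to 1. Shares of all genes in those fits are not given. Under the other 17 alternatives the medians ran from 0.045 to 0.60, 0.31 to 0.56, 0.23 to 0.52, -0.75 to -0.20, -0.59 to 0.12, -0.59 to -0.17 and -0.28 to 0.52, so their sizes, and the sign of the interaction, depend on the setting. Within libraries whose identifiers lack or carry a letter (what the letter stands for was not given), the wild-type hydroquinone median was 0.45 without and 0.045 with a letter, that in knockout 0.31 and 0.44, and that of knockout against wild type with hydroquinone -0.57 and -0.26. No paired analysis was possible because the titles give no replicate number shared between groups and each mouse belongs to 1 group. Over all genes, edgeR called 1, 7, 13 and 0 for hydroquinone in wild type, in knockout and averaged, and knockout against wild type with hydroquinone, where DESeq2 called 20, 14, 39 and 3. With the eyes of a mouse summed, the counts in knockout and averaged were 3 and 6. Depth limits the lowest values, such as the 8 counts of Oas3 in untreated knockout library 1.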

Other observations

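A list of 57 further interferon targets, all of them tested, lay mostly on the same side of 0 as the members. For averaged hydroquinone 53 were higher and 4 lower, at a median log2 fold change of 0.36, 24 had an unadjusted p below 0.05 (5.72% of all genes did) and none was called by edgeR. Averaged over treatment, 56 were lower in the knockout, at a median of -0.41. Nlrc5, the transactivator of MHC class I genes, had the smallest p for averaged hydroquinone, at 1.33 ± 0.38 (SE; edgeR, adjusted p = 0.710), and it lay at 11.1, 18.9, 2.86 and 13.8 CPM in wild-type hydroquinone libraries 1 to 4. Ifi203, of the cluster of interferon-induced DNA-binding proteins, followed at 0.57 ± 0.18 (adjusted p = 0.761).

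Other genes, chosen after their values were seen, had the library order of the members or departed from it. The immunoproteasome subunit Psmb8 was 97.8, 164, 16.9 and 63.8 CPM in wild-type hydroquinone libraries 1 to 4, and Tap1, a subunit of the peptide transporter for MHC class I, was 58.1, 83.5, 17.6 and 35.5 CPM. Apol9a, an apolipoprotein L of mice, was 41.0, 84.3, 0.159 and 13.1 CPM. Cxcl9, a chemokine typical of interferon gamma, did not share that order: it was 1.75, 1.47, 0.755 and 13.2 CPM in the same libraries, highest in library 4, which also had the highest macrophage score (6.27). Cxcl10, its relative, was one of the 4 targets with a negative value for averaged hydroquinone, at -0.76 ± 0.49 (edgeR, adjusted p = 0.914). The part of the macrophages was not tested.

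The tested genes outside the members whose log2(CPM + 1) followed the member score most closely over the 16 libraries were Trim30a (r = 0.97), Phf11d (0.96), Oas1g (0.96), Ddx60 (0.96) and Slfn2 (0.96), given as a description with no p. Of the 20 closest, 13 were on the list of further targets. Among the rest, H2-T23 (0.93), a non-classical MHC class I gene, and Rnf114 (0.92), a ubiquitin ligase, lay at 292 and 178 CPM in wild-type hydroquinone library 2 and at 50.7 and 60.3 CPM in library 3.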
